A study of Mus musculus with 4 samples.

Results

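Transcripts of 10 genes of the Hippo pathway were examined in mouse tail tip fibroblasts (TTF) with and without an autosomal *Xist* transgene. The genes were taken by symbol, 10 of the 23924 listed in the expression matrix. They are the co-activators *Yap1* and *Wwtr1* (which encodes TAZ), the DNA-binding partners *Tead1*, *Tead2*, *Tead3* and *Tead4*, the kinases *Lats1* and *Lats2*, and *Ankrd1* and *Amotl2*, which are widely used as target genes of the pathway. The TG cells came from hemizygous Tg2087/+ males of the line C57BL/6J-TgBAC8-2087, in which a stretch of the X-inactivation center (*Xic*) that includes *Xist* sits in 1 autosomal locus, and the WT cells came from +/+ males of the same litter. Cells of both genotypes were immortalized with the large T cDNA of Simian virus 40, were tetraploid, and were cultured in the same DMEM medium with FBS. Each genotype was sequenced in 2 RNA-seq libraries. Whether these came from separate animals or cultures is not stated, nor is the age of the mice, so the p-values measure the spread between libraries, which may be technical.

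The Hippo pathway is a kinase cascade that restrains growth. Its last kinases, LATS1 and LATS2, phosphorylate YAP and TAZ, which are then held in the cytoplasm or degraded. Unphosphorylated YAP and TAZ enter the nucleus and bind TEAD proteins, which recognise short DNA elements at target genes. In fibroblasts the pathway responds to cell density, stiffness of the substrate and tension of the actin cytoskeleton, and its targets include genes of the extracellular matrix. RNA-seq reads none of the phosphorylation or localisation steps. It reads only the transcripts of these proteins and of their targets.

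The letters GGAATG, the core of the element that TEAD proteins bind, were searched on both strands in RefSeq promoter windows on GRCm38.p6, each from 250 bases before to 50 after a gene's start. Windows were found for 8 of the 10 genes, all but *Tead1* and *Tead4*. The letters stood in a window of 6 of these 8 genes, namely *Yap1*, *Wwtr1*, *Tead3*, *Lats2*, *Ankrd1* and *Amotl2*, and in no window of *Tead2* or *Lats1*. Of all 32851 windows, 14.7% held them, and of the 9196 tested genes with a window 13.9% did. The 250 bases before the start are shown for *Ankrd1* and *Amotl2*, targets whose windows hold the letters, and for *Tead3*, the gene of the 10 with the lowest adjusted p between the genotypes. Capitals mark the letters, which read CATTCC where the match is on the other strand, and each sequence is written on the strand of its gene.
*Ankrd1* (chr19:36119845-36120094, minus strand): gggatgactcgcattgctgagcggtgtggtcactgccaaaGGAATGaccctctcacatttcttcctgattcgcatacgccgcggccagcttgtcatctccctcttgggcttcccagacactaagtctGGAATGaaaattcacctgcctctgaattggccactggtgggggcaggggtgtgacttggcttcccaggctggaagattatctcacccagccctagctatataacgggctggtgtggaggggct
*Amotl2* (chr9:102717554-102717803, plus strand): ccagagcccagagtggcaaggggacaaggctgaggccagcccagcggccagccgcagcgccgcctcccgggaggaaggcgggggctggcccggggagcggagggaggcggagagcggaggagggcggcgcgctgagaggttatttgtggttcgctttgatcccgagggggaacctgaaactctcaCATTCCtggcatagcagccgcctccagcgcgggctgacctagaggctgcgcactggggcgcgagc
*Tead3* (chr17:28350601-28350850, minus strand): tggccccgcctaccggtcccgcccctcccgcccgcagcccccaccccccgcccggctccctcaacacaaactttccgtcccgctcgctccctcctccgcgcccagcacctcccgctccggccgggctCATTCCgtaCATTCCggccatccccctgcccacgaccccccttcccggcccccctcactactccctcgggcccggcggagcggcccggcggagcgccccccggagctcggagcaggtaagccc
The matches began 210 and 123 bases before the start in *Ankrd1*, 65 bases before it in *Amotl2*, and 123 and 114 bases before it in this window of *Tead3*, which held 1 more match from base 3 after the start, outside the bases shown. A second window of *Tead3* held 1 match, 182 bases before its start, and another window of it held none. Of the windows of *Tead3*, the one shown held the most matches. Of all windows, 1.36% held at least 2 matches. A match is a description of the sequence, and binding was not measured.

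The FPKM matrix gives fragments per kilobase of gene, scaled to library size, so levels can be compared between genes. The totals by which FPKM was scaled were 9465712 to 14639946 reads, as worked out from the whole-number ratios in the matrix. *Xist*, the transgene's own transcript, was listed at 0 and 0.108 FPKM in WT 1 and WT 2 and at 2.31 and 2.28 in TG 1 and TG 2. All 4 libraries therefore matched their labels. TG was compared with WT by limma on the log2(FPKM + 0.5) scale, over 11524 genes whose mean FPKM reached 0.5. A gene was called where its adjusted p was under 0.01 and its log2 fold change was 1 or more in size. These thresholds called 54 genes lower in TG (0.469%) and 70 higher (0.607%). The split was 55 and 47 after quantile normalization and 150 and 124 with limma voom on the recovered reads. *Xist* itself was not called in the main test (log2 fold change 2.34, SE 0.40, limma adjusted p = 0.0112). With limma voom on the recovered reads it was called (6.55, 0.000279). A gene that differs between the genotypes can thus go uncalled. Of the fibroblast markers, 7 of 10 were at 1 FPKM or more in all libraries and their summed level was 5596 to 6007 FPKM in WT and 5192 to 5642 in TG, while *Lum* was at 0 in all 4. *Dcn* was at 0 in both WT libraries and at 0.0429 and 0.878 FPKM in TG. *Pdgfra* was at 0.0999 and 0.307 FPKM in WT and at 0.823 and 1.13 in TG. Of the 8 fibroblast markers tested, 2 were lower at an adjusted p under 0.05. The smooth muscle list summed to 9458 to 9770 FPKM in WT and 4352 to 5034 in TG, 5 of its 7 genes were at 1 FPKM or more in all libraries, and 3 of the 5 tested were lower at an adjusted p under 0.05. In that list *Cnn1* (log2 fold change -1.78, limma adjusted p = 0.00114) and *Actg2* (-1.87, 0.000399) were called lower. *Acta2* was at 4031 and 4797 FPKM in WT and at 1851 and 1996 in TG. *Myh11* and *Des* stayed at or below 0.435 FPKM in every library. Summed levels were 12.1 to 12.7 FPKM in WT and 6.10 to 6.18 in TG for skeletal and cardiac muscle (3 of 8 genes at 0 throughout), and 8.95 to 12.3 against 5.21 to 11.4 for blood cells (3 of 6 at 0). They were 1.82 to 2.37 against 11.9 to 12.7 FPKM for epithelium (3 of 7 at 0). Nearly all of that sum came from *Krt18*, except in WT 1, where *Krt18* gave 1.10 of 1.82 FPKM. The sums were at most 0.567 for endothelium (2 of 6 at 0), and 0.559 to 0.732 against 2.72 to 2.94 for Schwann cells and melanocytes (1 of 7 at 0).

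All 10 genes were expressed in both genotypes and all 10 passed the filter on low values. None was called lower (0 of 10, against 0.469% of all tested genes) and none was called higher (0 of 10, against 0.607%). At an unadjusted limma p under 0.05 there were 2 lower genes, *Tead1* and *Tead3*, where 6.88% of all tested genes were lower, and no higher one, where 12.7% were. Limma voom on the recovered reads also called 0 of the 10 in each direction, against 1.3% of tested genes lower and 1.08% higher. At the looser rule of an adjusted p under 0.05 with any fold change, 1 gene was lower (*Tead3*) against 1.54% of all tested genes, and 0 were higher against 2.59%. With voom at that rule 2 were lower, *Tead1* and *Tead3*, against 4.38% of tested genes, and 0 were higher, against 3.57%. Both TG libraries lay below both WT libraries for 3 genes (*Yap1*, *Tead1* and *Tead3*), where 20.3% of tested genes did, and above them for 3 genes (*Tead2*, *Tead4* and *Lats1*), where 30.2% did. The other 4 genes overlapped. The log2 fold changes ranged from -0.89 to 0.35 with a median of -0.02, which was -0.09 after upper-quartile scaling and -0.12 after quantile normalization. The median over all tested genes was 0.07, and 0.01 and -0.01 in those settings. The median size of the change was 0.14 for the 10 genes and 0.26 over all tested genes. Loss of cells that carry a transcript and loss of the transcript per cell cannot be told apart in these bulk samples.

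**Figure D1:**
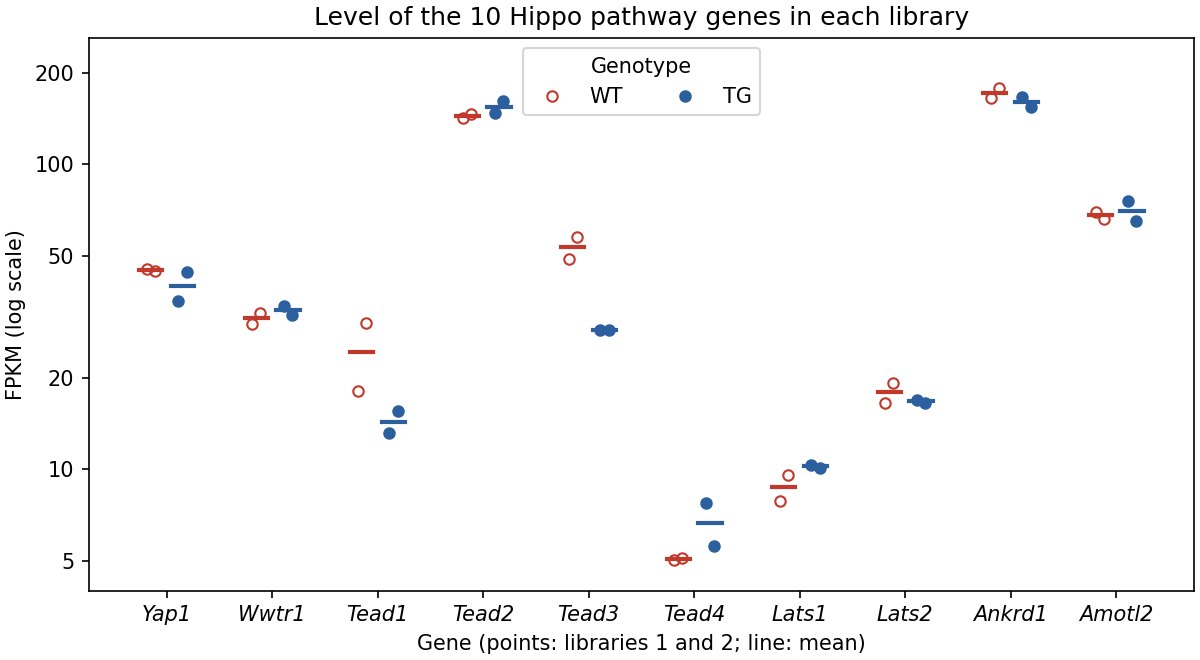
FPKM of the 10 Hippo pathway genes on a log axis, with open red points for the 2 WT libraries, filled blue points for the 2 TG libraries and a line at each mean. *Tead3* lies at 48.9 and 57.9 in WT and at 28.6 in each TG library, and *Tead1* spreads from 18.1 to 30.3 within WT.

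*Ankrd1* and *Tead2* stood highest and *Tead4* lowest in every library. In both WT libraries the order was *Ankrd1*, *Tead2*, *Amotl2*, *Tead3*, *Yap1*, *Wwtr1*, *Tead1*, *Lats2*, *Lats1* and *Tead4*. The ranges of the WT libraries overlapped for the neighbours *Wwtr1* and *Tead1* and for *Tead1* and *Lats2*. In TG the ranges of *Ankrd1* and *Tead2* overlapped. *Tead3* lay above *Yap1* and *Wwtr1* in both WT libraries and below both of them in both TG libraries, and *Tead1* lay above *Lats2* in WT 2 and WT 1 and below it in TG 1 and TG 2.

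No difference was detected for the co-activators. *Yap1* (9:7931999-8004596, minus strand, GRCm38), which encodes the coactivator YAP, was at 45.3 and 44.8 FPKM in WT and at 35.6 and 44.5 in TG. TG 1 alone was low, since TG 2 lay just under both WT libraries. The log2 fold change was -0.18 (SE 0.19, limma adjusted p = 0.658), with a 95% interval from -0.59 to 0.23. *Wwtr1* (3:57455649-57575910, minus strand), whose product TAZ acts beside YAP, was at 29.9 and 32.6 FPKM in WT and 34.3 and 32.1 in TG. The ranges overlapped, with a log2 fold change of 0.09 (SE 0.18, limma adjusted p = 0.843) and an interval from -0.31 to 0.48. *Yap1* and *Wwtr1* together summed to 75.2 and 77.4 FPKM in WT and 69.9 and 76.6 in TG. The share of *Yap1* in that sum was 60.3% and 57.8% in WT and 50.9% and 58.1% in TG, so the low share was that of TG 1. The mean share differed by -4.55 percentage points (TG minus WT), and by -0.982 points without TG 1.

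Of the 4 TEAD genes, which encode the transcription factors that bring YAP and TAZ to DNA, only *Tead3* passed the looser rule in the main test. *Tead3* (17:28331671-28350817, minus strand) was at 48.9 and 57.9 FPKM in WT and at 28.6 and 28.6 in TG, from 1321, 2419, 972 and 903 reads. Both TG libraries lay well below both WT libraries and differed from each other by less than their counting error, with a ratio of 1.001 (95% interval 0.914 to 1.10). Mean FPKM was 46.5% lower in TG, and the log2 fold change was -0.89 (SE 0.18, limma adjusted p = 0.0244), with an interval from -1.29 to -0.48. The change thus passed the looser rule and not the rule that called genes. Its direction was the same under all 13 other settings, but the adjusted p was over 0.05 with every gene above 0 included (0.0927), without the variance trend (0.0985), with the replicate number as a block (0.0763), and without WT 1 (0.0671), WT 2 (0.195), TG 1 (0.0838) or TG 2 (0.0771). With limma voom on the recovered reads it was 0.000881 at a log2 fold change of -0.97. The summed smooth muscle markers were also lower in TG, at 4352 to 5034 FPKM against 9458 to 9770 in WT, and their part in the difference of *Tead3* was not tested.

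*Tead1* (7:112679318-112906807, plus strand) was at 18.1 and 30.3 FPKM in WT and 13.1 and 15.5 in TG. Both TG libraries were below both WT libraries, but WT 2 stood apart from WT 1 by a ratio of 1.67 (95% counting interval 1.58 to 1.77), the widest gap between replicates among the 10 genes. The log2 fold change was -0.70 (SE 0.25, limma adjusted p = 0.153), with an interval from -1.25 to -0.15. It was -0.34 without WT 2 (limma adjusted p = 0.619) and -1.06 without WT 1 (0.0817), and limma voom on the recovered reads gave -0.80 with an adjusted p of 0.0105.

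*Tead2* (7:45215753-45233644, plus strand), the most abundant TEAD transcript, was at 142 and 146 FPKM in WT and 147 and 161 in TG. TG lay above WT by little, with a log2 fold change of 0.09 (SE 0.17, limma adjusted p = 0.821), an interval from -0.28 to 0.47, and a sign that turned to -0.01 after quantile normalization. Its end overlaps *Cd37* on the opposite strand, which was listed at 0.408 FPKM or less in every library. *Tead4* (6:128224288-128300823, minus strand), the rarest of the 4, was at 5.05 and 5.11 FPKM in WT and at 7.76 and 5.59 in TG, from 140 to 271 reads. TG 1 was high and TG 2 close to WT, and the log2 fold change of 0.35 (SE 0.24, limma adjusted p = 0.489) had an interval from -0.20 to 0.89. Its SE was among the widest of the 10 genes, second to that of *Tead1*.

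**Figure D2:**
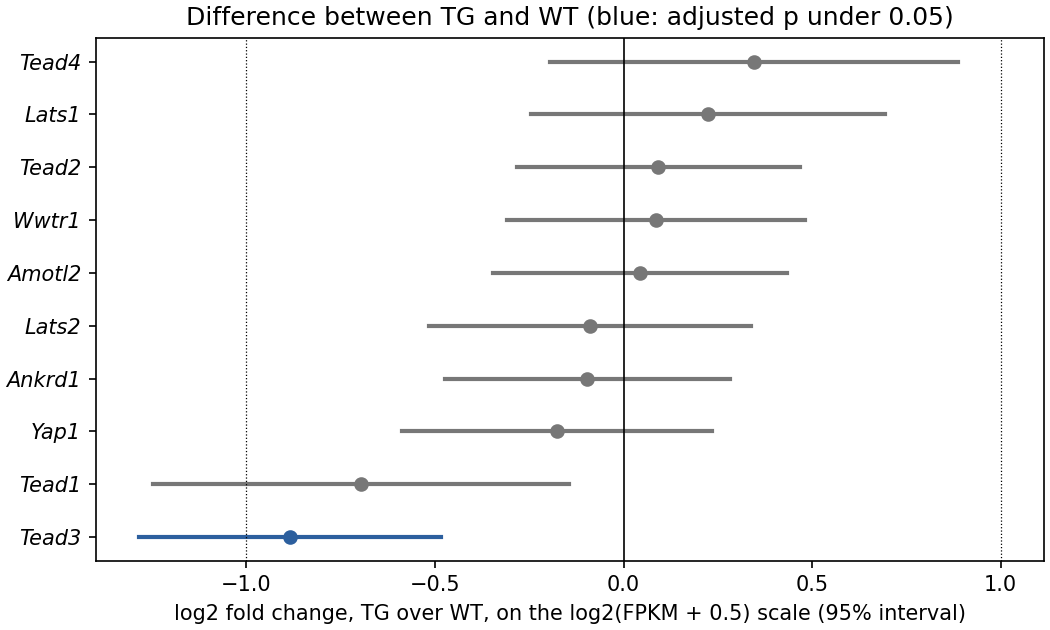
Log2 fold change of TG over WT for each of the 10 genes on the log2(FPKM + 0.5) scale, with the 95% interval from limma as a bar and dotted lines at the threshold of 1 in either direction. The intervals of *Tead3* (-1.29 to -0.48) and *Tead1* (-1.25 to -0.15) lie below 0, and those of the other 8 genes include 0.

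The order of the TEAD transcripts, *Tead2* over *Tead3* over *Tead1* over *Tead4*, was the same in all 4 libraries, while their proportions differed. *Tead2* made up 66.3% and 61.0% of the summed TEAD FPKM in WT and 74.8% and 76.4% in TG. *Tead3* made up 22.8% and 24.2% in WT and 14.6% and 13.6% in TG. *Tead1* held 8.47% and 12.6% in WT and 6.68% and 7.37% in TG, and *Tead4* held 2.36% and 2.13% in WT and 3.96% and 2.66% in TG. The genotypes did not overlap in any of the 4 shares, with *Tead2* and *Tead4* higher in TG and *Tead1* and *Tead3* lower. In FPKM, both TG libraries lay below both WT libraries for 20.3% of all tested genes and above them for 30.2%. The 4 shares of a library add up to the whole, so they are not 4 separate results. The level of *Tead2* itself differed by a log2 fold change of 0.09 (limma adjusted p = 0.821). The mean share, TG minus WT, differed by 11.9 percentage points for *Tead2*, by -9.44 for *Tead3* and by -3.52 for *Tead1*. The value for *Tead1* was -5.61 points without WT 1 and -1.44 points without WT 2. In shares of recovered reads, not scaled by gene length, it was -8.17 points for *Tead1* and -7.196 for *Tead3*, so the order of these 2 turned. The ratio of *Tead2* to *Tead3* was 2.91 and 2.52 in WT and 5.14 and 5.62 in TG. The summed TEAD level was 214 and 239 FPKM in WT (227 ± 17.9, SD, n = 2) and 196 and 210 in TG (203 ± 10.0). Both TG libraries lay below both WT libraries, and the means differed by less than the sum of the 2 SDs. These shares and ratios are given as descriptions, without a test.

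**Figure D3:**
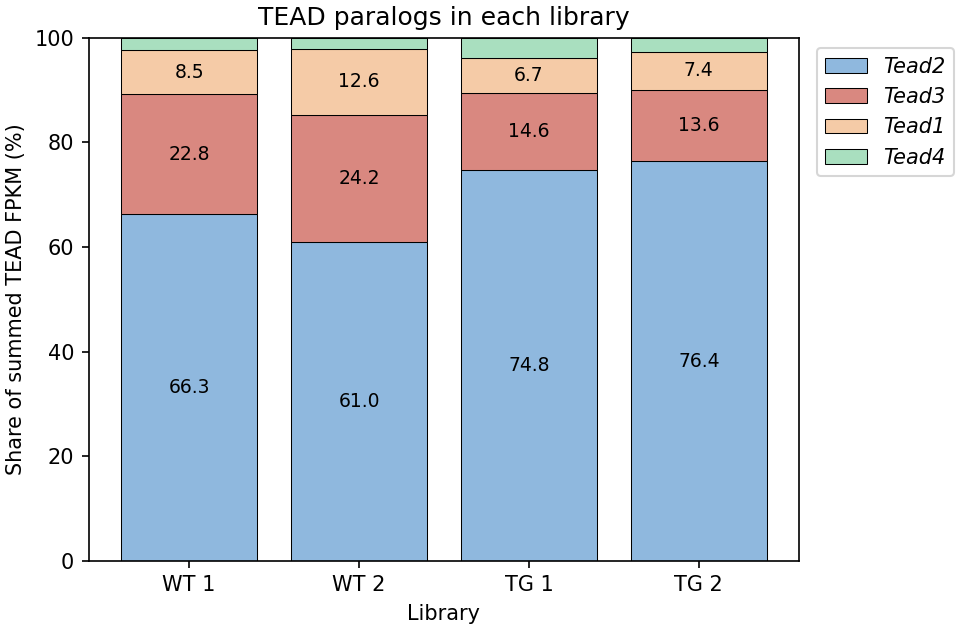
Share of each TEAD gene in the summed FPKM of *Tead1* to *Tead4*, in percent, as a stacked bar for each library. *Tead2* takes 61.0% to 66.3% in WT and 74.8% to 76.4% in TG, and *Tead3* takes 22.8% to 24.2% in WT and 13.6% to 14.6% in TG.

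No difference beyond the error was detected for the LATS kinases. *Lats1* (10:7681214-7716460, plus strand) was at 7.88 and 9.59 FPKM in WT and 10.3 and 10.1 in TG. TG lay above WT, with a log2 fold change of 0.22 (SE 0.21, limma adjusted p = 0.617) and an interval from -0.25 to 0.69. *Lats2* (14:57689662-57758388, minus strand), which is both a kinase of the pathway and a known target of YAP, was at 16.5 and 19.2 FPKM in WT and at 16.9 and 16.5 in TG. The ranges overlapped, and the log2 fold change of -0.09 (SE 0.19, limma adjusted p = 0.849) had an interval from -0.52 to 0.34 and turned to 0.02 without WT 2. The ratio of *Lats2* to *Lats1* was 2.10 and 2.01 in WT and 1.64 and 1.63 in TG. *Lats2* overlaps *Gm49361* on the same strand, which was not analysed here, and how reads in the shared part were counted is not stated.

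No difference was detected for the targets *Ankrd1* and *Amotl2* either. *Ankrd1* (19:36111961-36120099, minus strand), which encodes a nuclear ankyrin repeat protein induced by stretch in muscle, was at 165 and 178 FPKM in WT and at 167 and 154 in TG. The ranges overlapped, with a log2 fold change of -0.10 (SE 0.17, limma adjusted p = 0.812) and an interval from -0.47 to 0.28. *Amotl2* (9:102716672-102733418, plus strand), which encodes an angiomotin that binds YAP and restrains it, was at 69.9 and 66.3 FPKM in WT and at 75.8 and 65.0 in TG. The log2 fold change was 0.04 (SE 0.18, limma adjusted p = 0.924), with an interval from -0.34 to 0.43, and its sign turned after upper-quartile scaling (-0.02), after quantile normalization (-0.10), with voom (-0.02) and without TG 1 (-0.07). For both genes the interval leaves out a change by 1 on the log2 scale in either direction.

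The wider list of 19 commonly used YAP and TAZ target genes, kept apart from the 10 genes above, moved in both directions. Of the 18 tested, 1 was called lower (*Ccn2*) and 1 higher (*Igfbp3*), against 0.469% and 0.607% of all tested genes. Limma voom on the recovered reads called 3 lower and 1 higher, against 1.3% and 1.08% of tested genes. At an adjusted p under 0.05 there were 4 lower (*Ccn2*, *Ccdc80*, *Tgfb2* and *Rbms3*) and 2 higher (*Igfbp3* and *F3*), against 1.54% and 2.59% of all tested genes. With voom 5 were lower and 2 higher at that level, against 4.38% and 3.57% of tested genes. Both TG libraries lay below both WT libraries for 6 of the 18 targets, where 20.3% of all tested genes did, and above them for 5, where 30.2% did, and 7 overlapped. The median log2 fold change of the list was 0.01, and it was -0.06 after upper-quartile scaling and -0.05 after quantile normalization. *Nt5e* did not reach the filter, at 0.523 and 0.557 FPKM in WT and 0.0489 and 0.0527 in TG.

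*Ccn2*, which encodes connective tissue growth factor and is the target most often read as a sign of YAP activity, was at 605 and 590 FPKM in WT and at 259 and 252 in TG. It fell by 57.2% in mean FPKM, with a log2 fold change of -1.22 (SE 0.17, limma adjusted p = 0.00435). Limma voom on the recovered reads gave -1.29 with an adjusted p of 6.77e-07. The direction held in all 13 other settings, and the adjusted p was 0.0512 without WT 1, 0.0655 without WT 2, 0.0215 without TG 1 and 0.0221 without TG 2, so the call was lost whichever library was left out. Its relative *Ccn1*, which encodes the matrix protein CYR61, was at 502 and 541 FPKM in WT and at 524 and 572 in TG (log2 fold change 0.07, SE 0.18, limma adjusted p = 0.877). *Ccn1*, like *Ankrd1* and *Amotl2*, overlapped between the genotypes. The ratio of *Ccn2* to *Ccn1* was 1.20 and 1.09 in WT and 0.495 and 0.441 in TG, and that of *Ccn2* to *Ankrd1* was 3.66 and 3.32 in WT and 1.55 and 1.64 in TG.

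In the main test the other 3 lower targets passed the looser rule alone. With limma voom on the recovered reads *Tgfb2* (log2 fold change -1.56, adjusted p 0.000963) and *Rbms3* (-1.25, 0.000418) were called lower. *Ccdc80* (-0.94, 0.000114) was not, its fold change being under 1 in size. *Ccdc80*, which encodes a secreted matrix protein, was at 402 and 428 FPKM in WT and 221 and 231 in TG (log2 fold change -0.88, SE 0.17, limma adjusted p = 0.0202). *Tgfb2*, a ligand of the TGF-beta family, was at 5.33 in both WT libraries and at 2.18 and 1.61 in TG (log2 fold change -1.30, SE 0.27, limma adjusted p = 0.027). *Rbms3*, which encodes an RNA-binding protein, was at 8.46 and 10.0 FPKM in WT and at 5.06 and 3.21 in TG (log2 fold change -1.10, SE 0.26, limma adjusted p = 0.0446). The WT and TG ranges stood apart for all 3 genes. *Tgfb2* lies on chromosome 1, *Rbms3* on chromosome 9 and *Ccn2* on chromosome 10. The study associated the transgene with the chromosome of *Tgfb2*. It concluded that this chromosome and that of *Rbms3* were most affected by silencing. *Yap1* and *Amotl2*, which were not called lower, share the chromosome of *Rbms3*. The part of chromosomal position in the differences was not tested. Leaving out a single library raised the limma adjusted p of *Ccdc80* to between 0.0717 and 0.16. That of *Tgfb2* became 0.138 without WT 1, 0.229 without WT 2 and 0.0949 without TG 2, and that of *Rbms3* became 0.14, 0.332 and 0.19 without the same libraries.

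*Igfbp3*, which encodes a secreted protein that binds insulin-like growth factors, rose from 0 and 1.13 FPKM in WT to 18.0 and 13.6 in TG. The log2 fold change was 4.16 on the log2(FPKM + 0.5) scale (SE 0.46, limma adjusted p = 0.00111), and since WT 1 had no reads its size depended on the processing. It was 3.51 with a pseudocount of 1, 5.49 with 0.1, 6.11 with voom and 3.31 without WT 1, where the adjusted p was 0.0203. *F3*, which encodes tissue factor, the trigger of blood clotting, was at 24.2 and 31.4 FPKM in WT and at 52.6 and 52.1 in TG. It passed the looser rule with a log2 fold change of 0.91 (SE 0.19, limma adjusted p = 0.0269), which was 0.118, 0.0914, 0.092 and 0.0801 without WT 1, WT 2, TG 1 and TG 2. With limma voom on the recovered reads the log2 fold change of *F3* was 0.84, with an adjusted p of 0.00787. The summed smooth muscle markers were at 9458 to 9770 FPKM in WT and 4352 to 5034 in TG. They were lower in TG as were *Ccn2*, *Ccdc80*, *Tgfb2* and *Rbms3* and unlike *Igfbp3* and *F3*, and their part in the differences was not tested.

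Upstream of LATS1 and LATS2, 25 of 26 listed regulators were tested, *Tnik* being too low. None was called in either direction and none had an adjusted p under 0.05, while 1 of 25 was lower and 1 higher at an unadjusted limma p under 0.05, against 6.88% and 12.7% of all tested genes. Limma voom on the recovered reads called 1 lower, *Fat4*, where it called 1.3% of tested genes lower. Both TG libraries lay below both WT libraries for 6 regulators and above them for 6, against 20.3% and 30.2% of tested genes, and the median log2 fold change was -0.05. The most abundant regulators were *Map4k4*, a kinase that activates LATS, with a log2 fold change of -0.18 (limma adjusted p = 0.65), and *Wwc2*, a relative of the scaffold KIBRA, at -0.07 (0.869). *Fat4*, an atypical cadherin, and *Mob1a*, a co-activator of LATS kinases, were chosen after their values were seen. *Fat4* was at 2.72 and 3.35 FPKM in WT and 1.30 and 1.65 in TG (log2 fold change -0.84, SE 0.31, limma adjusted p = 0.161), and it reached -1.13 with an adjusted p of 0.00247 with voom. *Mob1a* was at 17.6 and 15.8 FPKM in WT and 35.8 and 19.96 in TG (log2 fold change 0.67, SE 0.26, limma adjusted p = 0.186), high in TG 1 alone.

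Of 15 cofactors, which bind YAP, TAZ or TEAD, mark YAP for degradation or, as the LIM proteins do, restrain LATS, 13 were tested, and *Vgll1* and *Vgll2* were at 0 in every library. None was called and none had an adjusted p under 0.05, with 2 of 13 lower and 1 higher at an unadjusted limma p under 0.05, against 6.88% and 12.7% of all tested genes. Limma voom on the recovered reads called none and had 1 lower and 1 higher at an adjusted p under 0.05, against 4.38% and 3.57% of tested genes. Both TG libraries lay below both WT libraries for 6 cofactors and above them for 3, against 20.3% and 30.2% of tested genes, and the median log2 fold change was -0.09, or -0.18 with voom. *Ywhaz*, a 14-3-3 protein of the family that retains phosphorylated YAP in the cytoplasm, was at 128 and 150 FPKM in WT and 104 and 112 in TG (log2 fold change -0.36, SE 0.18, limma adjusted p = 0.288). *Csnk1d*, a casein kinase that marks YAP for degradation, differed by 0.04 (0.926). *Wtip*, a LIM protein, *Amotl1*, an angiomotin, and *Vgll3*, a TEAD cofactor, were chosen after their values were seen. *Wtip* was at 15.1 and 9.23 FPKM in WT and at 22.9 and 21.8 in TG (log2 fold change 0.89, SE 0.24, limma adjusted p = 0.0677). *Amotl1* was at 23.1 and 24.6 FPKM in WT and 15.4 and 17.7 in TG (log2 fold change -0.52, SE 0.19, limma adjusted p = 0.165). *Vgll3* was at 33.3 and 43.1 FPKM in WT and at 29.97 and 25.4 in TG (log2 fold change -0.45, SE 0.20, limma adjusted p = 0.248).

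**Figure D4:**
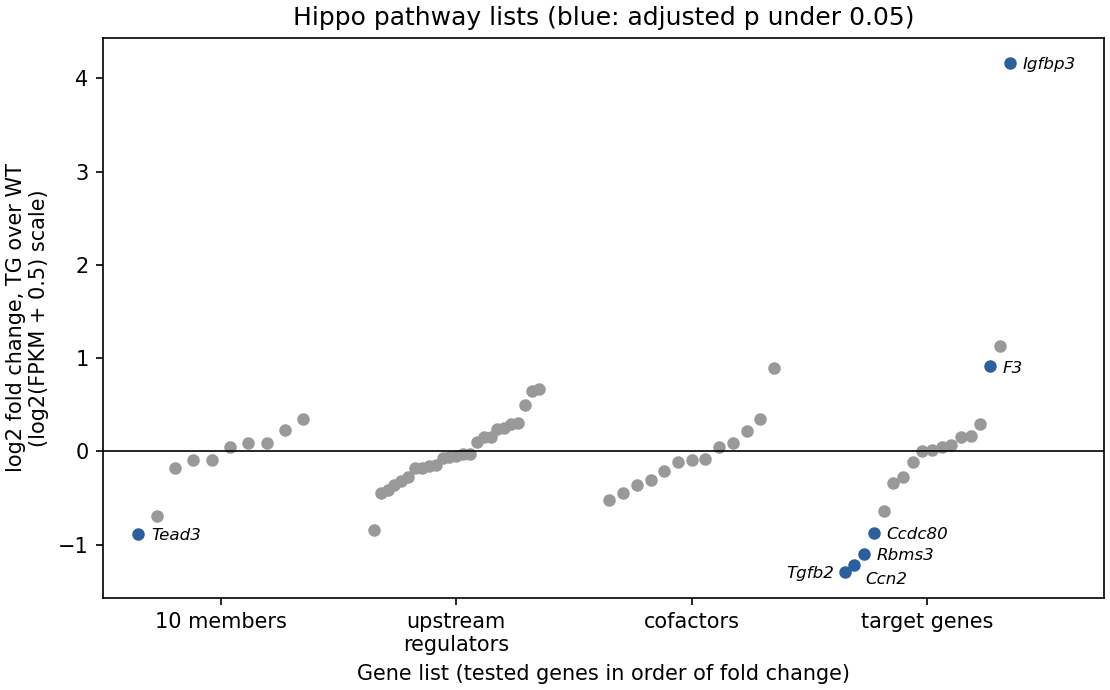
Log2 fold change of TG over WT on the log2(FPKM + 0.5) scale for every tested gene of the 10 Hippo pathway genes, the 25 upstream regulators, the 13 cofactors and the 18 target genes, in order within each list. Blue points have an adjusted p under 0.05, namely *Tead3* among the 10 genes, none among regulators and cofactors, and *Tgfb2*, *Ccn2*, *Rbms3*, *Ccdc80*, *F3* and *Igfbp3* among the targets.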

How the data were processed

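Polyadenylated RNA of 2 WT and 2 TG libraries was made into random-primed, strand-specific cDNA for paired-end sequencing. The authors used Rsubread for alignment to mm10 and featureCounts for counting per gene. They converted the counts to FPKM, the deposited values. Tool versions, the annotation and whether counting used strand are not given in the sources used here. The 10 genes and all gene lists were chosen with earlier results of these data known.

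The main test fitted a linear model with limma 3.58.1 (R 4.3.3), with empirical Bayes moderation along a trend, on the log2 scale after adding 0.5 to FPKM. It covered 11524 genes whose mean FPKM reached 0.5, and p-values were adjusted over all of them by the Benjamini-Hochberg method. The thresholds of 0.01 for the adjusted p and 1 for the log2 fold change are those of the study. The study applied them to a different test, DESeq, so the calls here are not the study's calls. It reported more lower than higher genes, while the main test here called more higher than lower genes. The low values of a gene stood in whole-number ratios between libraries, from which whole reads were recovered for all 15530 genes above 0. The totals by which FPKM was scaled were 9465712 (WT 1), 14639946 (WT 2), 11923758 (TG 1) and 11063020 (TG 2). The recovered reads made up 99.0% of these totals. Counting intervals cover counting error only. The effective length of a gene was most often 149 bases shorter than its exonic length. Positions are those of GENCODE on GRCm38, and promoter windows those of RefSeq on GRCm38.p6, matched by symbol (Python 3.11.15, scipy 1.17.1).

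The genes named are the 10 genes, every gene of the other lists with an adjusted p under 0.05 and the 2 of the highest mean FPKM in each list, *Xist*, and markers that bear on the label. Others are named as chosen after their values were seen. Alternatives were pseudocounts of 1 and 0.1, a filter at any value above 0 or at a mean FPKM of 1, limma with no trend, quantile normalization, scaling to equal upper quartiles, a block for the replicate number, leaving out each library, an adjusted p under 0.05 with any fold change, shares of recovered reads, and limma voom on recovered reads with median-ratio size factors. With 1 library left out, the lone library of its genotype is assumed to vary like the other group. The test was tried on simulated reads before use.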

Additional observations from a re-analysis of the deposited data

How the results depend on the processing

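Calls among the 10 genes stayed at 0 in each direction under every alternative except the looser rule of an adjusted p under 0.05 at any fold change. That rule gave 1 lower gene in the main test and 2 with voom. Regulators gave 1 lower call with voom on recovered reads. Among the target genes the number called lower, 1 in the main test, was 0 with all genes above 0, 0 without the variance trend, 0 with the replicate block, from 0 to 0 when each library was left out, 4 at the looser rule and 3 with voom. The number called higher, also 1, was 0 with all genes above 0, without the trend and with the block, 0 to 1 when each library was left out (0 without WT 1), and 2 at the looser rule. Over all genes the same settings called 1 lower and 0 higher, 6 and 3, and 8 and 12 with the replicate block, so fewer genes passed throughout, and voom called 150 and 124. Leaving out WT 1 called 1 and 0, WT 2 called 2 and 7, TG 1 called 47 and 47 and TG 2 called 41 and 66. The samples share only a number: the correlation of the difference between WT 1 and WT 2 with that between TG 1 and TG 2 was -0.03 across genes.

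Among the genes named, the sign reversed for 6 whose adjusted p was over 0.8 in the main test, and the cause was not tested. After quantile normalization the log2 fold change became -0.0143 for *Tead2*, -0.0986 for *Amotl2*, -0.0362 for *Csnk1d* and -0.0362 for *Ccn1*. After upper-quartile scaling it became -0.024 for *Amotl2* and -0.0251 for *Csnk1d*, and with voom -0.0167 and -0.0176. Leaving out each library gave -0.1955 to 0.0166 for *Lats2*, -0.0656 to 0.1543 for *Amotl2*, -0.174 to 0.025 for *Wwc2* and -0.0201 to 0.1057 for *Csnk1d*. With shares of recovered reads, which weigh long transcripts more, the *Tead1* share, TG minus WT, was -8.17 percentage points and the *Tead3* share -7.196.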
